A study of Homo sapiens with 6 samples.

Results

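Interferon-stimulated genes are the genes that cells switch on when an interferon reaches them, and 43 of them, taken by gene symbol, were examined in the JJ012 and C28 cell lines. All probes whose platform symbol is one of the 43 were taken. Of these genes, 42 had a listed probe (60 probes in all), and 38 were measured, meaning that at least 1 probe had a detection value above 0.99 on all 3 arrays of JJ012 or on all 3 arrays of C28. They belong to 11515 measured genes out of 20046 with a probe. RIGI, RSAD2, CMPK2 and SAMD9L had a probe that did not reach that level in either line, and STAT2 was not analysed here. CMPK2 was just outside the threshold, with a lowest detection value of 0.987 in its better line, whereas OASL was just inside at 0.995, and OAS1, OAS2 and TRIM22 were next at 0.997.

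Interferons are secreted proteins that bind receptors on the surface of the same or a neighbouring cell. The receptors carry JAK kinases, which phosphorylate STAT proteins. STAT proteins join IRF9 to form a factor that binds a DNA element called ISRE (interferon-stimulated response element), and dimers of STAT proteins bind an element called GAS (gamma-activated site). The products of the genes that follow sense viral RNA, cut or trap it, block viral entry and release, modify proteins with the ubiquitin-like protein ISG15, or feed back on the pathway. Many of these genes also have a low level in cells that meet no interferon, and sets of them are on in some cancer lines.

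JJ012 is a human chondrosarcoma line, and C28 is a human chondrocyte line, the control of the study. Total RNA of each was hybridised to 3 Illumina bead arrays after 5000000 cells had been seeded in a dish and incubated for 24 h, with no interferon or other agent named. The series set out to compare the miRNA and mRNA of a chondrosarcoma line with those of control chondrocytes, and the miRNA arrays were not used here. Each group is 1 cell line, and the labels do not say that its arrays came from separate cultures, so the p-values reflect only how far these arrays differ among themselves, which may be technical variation.

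The arrays detected 17826 to 18378 of 47231 probes in JJ012 and 18922 to 19332 in C28. Across 15285 probes, log2 signals correlated at 0.986 to 0.992 among JJ012 arrays, at 0.994 to 0.996 among C28 arrays and at 0.891 to 0.907 between the lines. JJ012 replicate 1 read above background at probes that are bright in C28. This was read from 56 probes of other genes with a bright C28 signal and none on JJ012 replicate 2. Their median on JJ012 replicate 1 was 10.6% of the C28 level with all 56 detected, JJ012 replicate 3 read 2.31% with 38 detected, and JJ012 replicate 2, off by selection, read 0.658%. The chondrocyte label had little support in the markers examined in either line. SOX9, the chondrocyte transcription factor, was detected on all 6 arrays, but the cartilage matrix genes ACAN, COL9A1, COL11A2, COMP and HAPLN1 and the cartilage factor CNMD were detected on none, COL2A1 was detected on 1 C28 array and MATN3 in C28 alone. Of other cell types that make or answer interferon, the leukocyte genes PTPRC, CD3E and LYZ and the plasmacytoid dendritic cell genes CLEC4C and LILRA4 were undetected on all arrays, and IL3RA, of the same cells, was detected on 1 C28 array. CD68 (log2 difference of JJ012 minus C28 2.968) and CD14 (−2.715) were detected on all 6 arrays and differed in opposite directions. The endothelial gene PECAM1 was detected in JJ012 alone, whereas the endothelial genes VWF and CDH5 were undetected on all arrays. The epithelial gene EPCAM (−1.98) was detected on 1 JJ012 array and on all C28 arrays, and CDH1, KRT5 and KRT19 on none. The fibroblast gene COL3A1 (−3.78) was detected on 1 JJ012 array and on all C28 arrays. The other fibroblast or mesenchymal genes examined were detected on all 6 arrays, with COL1A1 at −1.45, COL1A2 at −2.12, FN1 at −1.28 and VIM at 0.24. The summed signal of the 5 leukocyte markers with a probe was 6555 to 8352 on JJ012 arrays, most of it CD68, against 1472 to 1785 on C28 arrays, and its part in the results was not tested.

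The promoter windows of 6 members are shown because they stand before the genes that differed most between the lines in each direction: IFI44L, IFI44 and IFI27 were higher in JJ012, and EPSTI1, HERC5 and MX1 were lower. Each window holds 300 bases, from 250 before to 50 after the RefSeq transcript start on build GRCh38.p14, and runs 5′ to 3′ on the strand of the gene. Capitals mark the core of the ISRE, written as TTTCNNTTTC or its reverse complement. MX1 had 3 RefSeq windows, and IFI44 and IFI27 had 2 each. For these the window with the most cores is shown, or the first listed of equals, so the choice favours windows with a match. The windows lie at chr1:78620198-78620497 (plus strand) for IFI44L, chr1:78649539-78649838 (plus) for IFI44, chr14:94110486-94110785 (plus) for IFI27, chr13:42992192-42992491 (minus) for EPSTI1, chr4:88456869-88457168 (plus) for HERC5 and chr21:41420308-41420607 (plus) for MX1.
IFI44L: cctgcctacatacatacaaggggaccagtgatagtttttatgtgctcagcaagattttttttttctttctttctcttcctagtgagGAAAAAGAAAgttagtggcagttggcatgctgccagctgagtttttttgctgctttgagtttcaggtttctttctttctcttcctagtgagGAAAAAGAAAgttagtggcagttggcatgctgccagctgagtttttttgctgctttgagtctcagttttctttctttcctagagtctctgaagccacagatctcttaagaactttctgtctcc
IFI44: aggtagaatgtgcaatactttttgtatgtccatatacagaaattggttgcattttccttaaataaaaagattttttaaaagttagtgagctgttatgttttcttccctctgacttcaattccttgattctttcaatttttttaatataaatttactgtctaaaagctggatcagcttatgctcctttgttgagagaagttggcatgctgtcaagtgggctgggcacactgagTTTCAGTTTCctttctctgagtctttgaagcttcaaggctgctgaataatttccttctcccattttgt
IFI27: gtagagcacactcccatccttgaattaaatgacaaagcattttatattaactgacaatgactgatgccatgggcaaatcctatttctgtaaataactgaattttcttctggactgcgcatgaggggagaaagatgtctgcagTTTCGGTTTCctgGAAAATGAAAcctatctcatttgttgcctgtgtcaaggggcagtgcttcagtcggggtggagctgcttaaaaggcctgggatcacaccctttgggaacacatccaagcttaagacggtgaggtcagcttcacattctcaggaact
EPSTI1: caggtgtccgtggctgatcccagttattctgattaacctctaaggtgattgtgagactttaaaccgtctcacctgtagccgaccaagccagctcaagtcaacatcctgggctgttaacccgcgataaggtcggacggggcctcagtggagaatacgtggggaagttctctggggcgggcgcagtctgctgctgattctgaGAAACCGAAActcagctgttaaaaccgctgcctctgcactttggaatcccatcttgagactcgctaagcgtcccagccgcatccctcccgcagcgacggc
HERC5: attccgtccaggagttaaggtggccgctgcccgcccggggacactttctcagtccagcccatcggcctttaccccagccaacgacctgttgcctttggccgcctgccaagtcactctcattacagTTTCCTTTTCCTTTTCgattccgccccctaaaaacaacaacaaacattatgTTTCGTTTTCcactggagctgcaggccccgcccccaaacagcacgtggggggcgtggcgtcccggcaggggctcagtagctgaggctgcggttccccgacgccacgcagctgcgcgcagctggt
MX1: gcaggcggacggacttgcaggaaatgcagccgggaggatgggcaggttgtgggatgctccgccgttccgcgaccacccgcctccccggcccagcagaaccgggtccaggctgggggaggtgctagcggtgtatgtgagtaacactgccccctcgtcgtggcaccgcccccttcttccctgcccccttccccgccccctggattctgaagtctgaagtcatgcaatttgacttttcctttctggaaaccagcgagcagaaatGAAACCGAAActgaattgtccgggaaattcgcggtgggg

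The 2 matches of IFI44L begin 164 and 73 bases before the start and lie in 2 identical copies of an 85-base stretch, set 91 bases apart. IFI44 had its match 18 bases before the start, close to it, and EPSTI1 50 bases before. In IFI27 the matches began 108 and 95 bases before the start, 1 on each strand. HERC5 had 3 matches, at 125, 119 and 74 bases before the start, of which the first pair overlap. The match of MX1 began at base 12 after the start of the window's transcript. These positions hold for the windows shown. In windows from other transcript starts, matches began 60 bases before the start for IFI44, 187 and 174 for IFI27, and 196 for MX1. Those of IFI44 and IFI27 had the same letters as the matches shown and may be the same sites counted from another start. That of MX1 had other letters. A gene was counted as holding a motif if any of its windows did, for members and for all genes alike. Over all members with a RefSeq window, 23 of 35 (65.7%) held the ISRE core on either strand. The counts were 1195 of 27305 genes in all (4.38%) and 353 of 9282 genes tested here (3.80%). The core was present in 5 of 6 members called higher in JJ012, in 8 of 10 called lower and in 9 of 14 measured members not called. The GAS letters TTCNNNGAA, searched on both strands, were in 11 of 35 members (31.4%) and in 9.38% of all genes. No ISRE core lay in the windows of IFI16, which was higher in JJ012, or of HERC6 and IRF1, which were lower. A match describes letters in this window, not a bound site.

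The members did not move as a block. Calls rest on limma, with p-values adjusted by Benjamini and Hochberg's method over all 11515 genes, and need an adjusted p below 0.05 together with a 2-fold change. Of 38 measured members, 6 were called higher in JJ012, 14 were called lower and 18 were not called. Among all genes 31.2% were called, 13.7% higher and 17.6% lower. The members' share of higher calls (15.8%) was near that of all genes, and their share of lower calls (36.8%) was above it. Several lower members, among them EPSTI1, MX1, IRF7, USP18 and TRIM22, passed the detection filter through C28 alone, the line where they are high. With detection required on all 6 arrays, 4 of 26 members were called higher and 6 lower, against 1014 and 1043 of 9399 genes. The median log2 difference of JJ012 minus C28 was −0.52 over the members and −0.04 over all genes. With the 6 members that 1 line did not detect set at bounds against the detection limit, the members' median was −0.39, and that of all genes −0.03. Of the members, 29 of 38 were negative, against 52.0% of all genes. Since RNA was measured in bulk, fewer expressing cells and less RNA per cell cannot be told apart. At 4-fold or more, 4 members were higher (background 4.06%) and 4 lower (6.07%). The 3 values of the lines did not overlap in 32 of 38 members, against 76.2% of all genes. In the plot of signals by array, IFI44L, IFI44, IFI27 and IFI16 lie far to the right in JJ012. EPSTI1, HERC5 and MX1 lie far to the left.

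**Figure D1:**
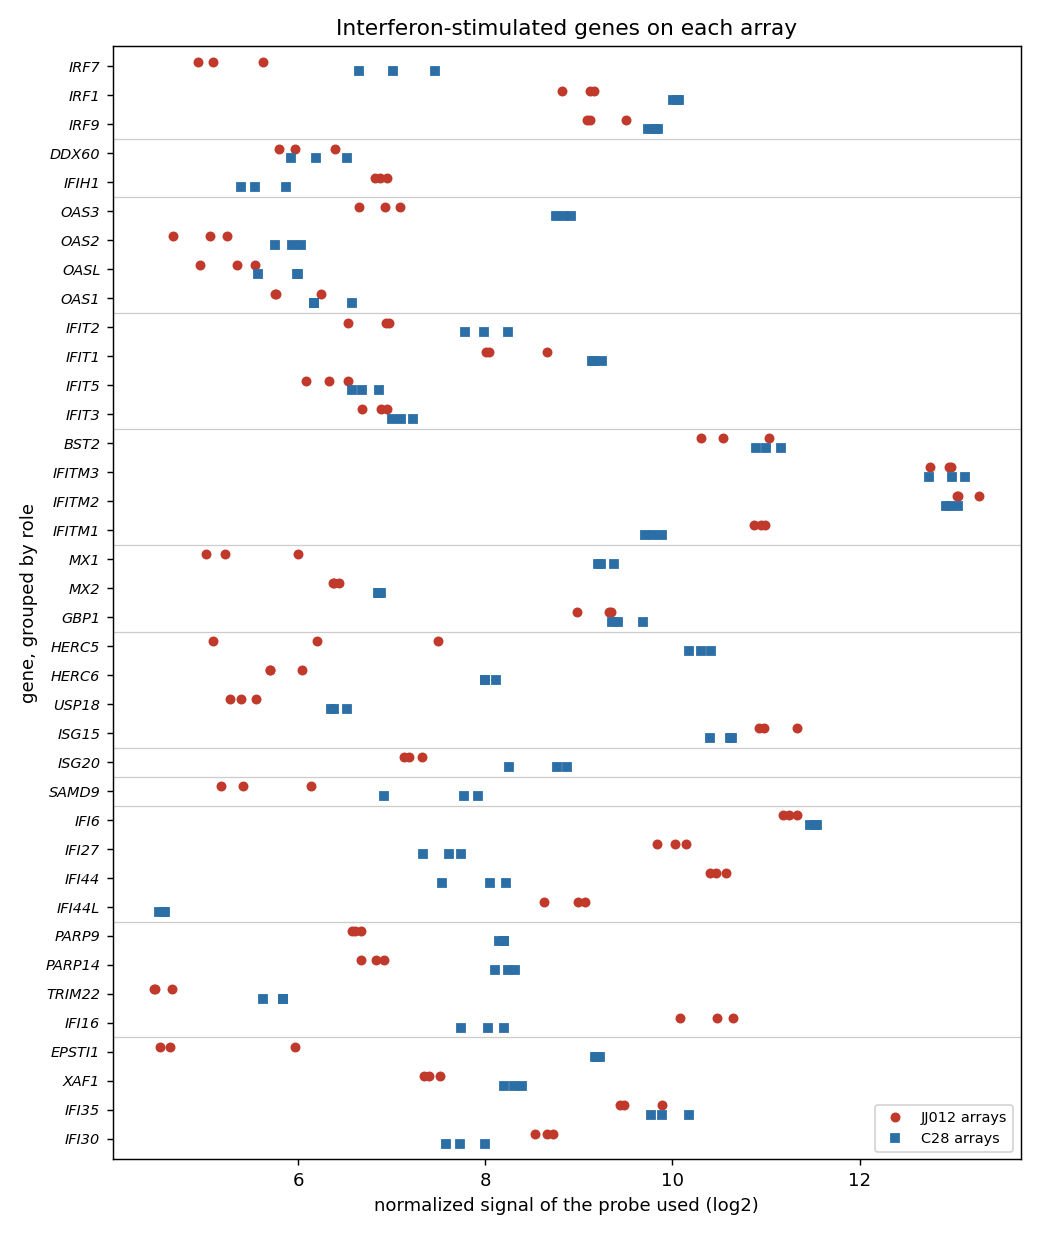
Normalized log2 signal (horizontal axis) of the probe used for each of 38 measured interferon-stimulated genes (vertical axis, grouped by role with grey lines between groups), with 1 red circle for each of 3 JJ012 arrays and 1 blue square for each of 3 C28 arrays. IFI44L, IFI44, IFI27 and IFI16 sit clearly to the right in JJ012, whereas EPSTI1, HERC5 and MX1 sit far to the left, and the ranges overlap in 6 genes.

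The signals below are normalized log2 values, given for replicates 1, 2 and 3 of a line in that order, and each difference is JJ012 minus C28. A value near 4.5 is background. Where no array of a line detected the probe, the difference is given only as a bound, "at least N-fold": the mean of the brighter line over the mean of, on each array, the higher of the probe's own signal and the lowest signal among detected probes. Every adjusted p comes from limma.

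The 3 measured signalling factors of the pathway all read lower in JJ012, and 2 of them were called. IRF1, a transcription factor that is itself induced by interferon and turns on further targets, read 8.82, 9.12 and 9.16 on JJ012 arrays, against 10.07, 10.05 and 10.01 on C28 arrays. That difference of −1.01 (SE 0.11, adjusted p = 9.99e-05) is at the 2-fold threshold, and IRF1 lost its call in 7 of 19 alternative analyses, among them without JJ012 replicate 1 (−0.90) and without C28 replicate 1 (−0.996, just short of 2-fold). IRF7, the factor that amplifies production of interferon alpha, was read from its measured probe, as its other probes were undetected on every array of both lines. The measured probe was detected on no JJ012 array and on all C28 arrays. Its signals were 5.62, 4.93 and 5.09 on JJ012 arrays, against 7.46, 6.65 and 7.02 on C28 arrays, which puts JJ012 at least 2.56-fold lower (adjusted p = 0.000236). Its fitted difference was −0.99, short of 2-fold, without background correction and in the authors' normalized values. IRF9, the DNA-binding subunit of the STAT complex, was detected in both lines and differed by −0.56 (adjusted p = 0.00436), short of 2-fold. With IRF7 included, 3 members called lower had no JJ012 detection (background 5.43%), the others being USP18 and TRIM22.

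Of the cytosolic RNA sensors, IFIH1, which encodes the double-stranded RNA sensor MDA5, was higher in JJ012. Its signals were 6.95, 6.88 and 6.82 on JJ012 arrays, against 5.87, 5.54 and 5.39 on C28 arrays, 2 of which detected it. All JJ012 arrays were above all C28 arrays, with a difference of 1.28 (SE 0.13, adjusted p = 6.17e-05), which fell to 0.71 without background correction and in the authors' normalized values, where the call was lost. DDX60, a helicase linked to RNA sensing, overlapped between the lines at −0.16 (adjusted p = 0.488). RIGI, the sensor of RNA with a free triphosphate end, had signals of 4.60, 4.88 and 5.16 on JJ012 arrays and 5.25, 5.01 and 5.31 on C28 arrays, none of them detected.

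The OAS enzymes make short oligoadenylates on double-stranded RNA, which switch on RNase L. OAS3 was the synthetase that was called, with 7.09, 6.65 and 6.93 on JJ012 arrays, against 8.92, 8.84 and 8.76 on C28 arrays. The lines were well apart, at −1.95 (SE 0.13, adjusted p = 6.17e-06), and a second OAS3 probe, detected in C28 alone, was at least 1.02-fold lower. OAS1 and OAS2, its direct neighbours on either side on chromosome 12, differed less. OAS1 overlapped between the lines at −0.38 (adjusted p = 0.0782). OAS2 was detected on no JJ012 array, with 5.06, 4.67 and 5.24 there against 5.94, 6.03 and 5.75 on C28 arrays, at least 1.16-fold lower and not called (adjusted p = 0.00104). OASL, which lacks synthetase activity, was likewise detected in C28 alone, at least 1.12-fold lower and not called (adjusted p = 0.0203).

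The IFIT proteins bind foreign RNA by its 5′ end, and their genes lie side by side on chromosome 10 in the order IFIT2, IFIT3, IFIT1, IFIT5. All 4 were below C28 without overlap, but to different extents. IFIT2 read 6.94, 6.97 and 6.53 on JJ012 arrays, against 7.98, 8.24 and 7.79 on C28 arrays, a difference of −1.19 (SE 0.16, adjusted p = 0.000274), which was −0.87, no longer called, without background correction. IFIT1 read 8.04, 8.66 and 8.01 on JJ012 arrays, against 9.16, 9.25 and 9.14 on C28 arrays. It missed the 2-fold threshold at −0.95 (adjusted p = 0.00156), and in 4 alternatives it passed. IFIT5 differed by −0.39 (adjusted p = 0.0324) and IFIT3 by −0.27 (adjusted p = 0.0574). The probes of IFIT3 did not agree, since a second gave 0.22 and the third, undetected in JJ012, was at least 1.44-fold lower.

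Among the membrane proteins that block viral entry or release, IFITM1 was higher in JJ012 and the rest were not called. IFITM1 read 10.95, 10.99 and 10.87 on JJ012 arrays, against 9.79, 9.88 and 9.71 on C28 arrays. The difference was 1.14 (SE 0.09, adjusted p = 1.66e-05), and 0.94 with median scaling of the arrays, short of 2-fold. IFITM2 and IFITM3, its neighbours on chromosome 11, were bright in both lines, between 12.74 and 13.28 on every array, and differed by 0.14 and −0.05. The IFITM genes are close in sequence and their probes may read one another. BST2, known as tetherin because it holds budding virions at the cell surface, overlapped between the lines at −0.39 (adjusted p = 0.0866).

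The GTPases differed widely in size of change. MX1, the dynamin-like GTPase that traps viral nucleoproteins, read 6.00, 5.02 and 5.22 on JJ012 arrays, against 9.38, 9.20 and 9.24 on C28 arrays. It was detected on 1 of 3 JJ012 arrays, replicate 1, and on all C28 arrays, with a difference of −3.86 (SE 0.23, adjusted p = 4.34e-06). When JJ012 replicate 1 was left out, no JJ012 array detected it and it was at least 12.3-fold lower. MX2, the neighbouring gene on chromosome 21, read 6.37, 6.38 and 6.44 on JJ012 arrays, against 6.89, 6.86 and 6.87 on C28 arrays, a narrow gap of −0.47 (adjusted p = 0.00117). GBP1, a guanylate-binding protein that responds to interferon gamma, differed by −0.27 (adjusted p = 0.113).

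The ISG15 system attaches the small protein ISG15 to newly made proteins. ISG15 itself was bright in both lines and did not follow its ligase, with 10.93, 11.33 and 10.97 on JJ012 arrays, against 10.63, 10.62 and 10.40 on C28 arrays. Its difference of 0.53 (SE 0.13, adjusted p = 0.0078) was without overlap and short of 2-fold. HERC5, the main ligase for ISG15 in human cells, read 7.49, 5.09 and 6.21 on JJ012 arrays, 2 of which detected it, against 10.17, 10.41 and 10.31 on C28 arrays. The difference was −4.04 (SE 0.51, adjusted p = 0.000186), −4.66 without JJ012 replicate 1 and −3.44 without JJ012 replicate 2.

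HERC6, the relative beside HERC5 on chromosome 4 that serves as the ISG15 ligase in mouse, read 5.71, 5.71 and 6.05 on JJ012 arrays, against 7.99, 8.0 and 8.11 on C28 arrays. It differed by −2.22 (SE 0.12, adjusted p = 2.52e-06) and was detected on JJ012 replicate 3 alone among JJ012 arrays. Without JJ012 replicate 3 it was at least 5.00-fold lower. USP18, which removes ISG15 and damps the interferon receptor, was detected in C28 alone, with 5.55, 5.39 and 5.28 on JJ012 arrays, against 6.36, 6.52 and 6.39 on C28 arrays. It was at least 1.66-fold lower (adjusted p = 6.54e-05), and 5 of 18 alternatives lost its call, as its fitted difference was −1.02.

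Enzymes and factors that act on nucleic acids or translation were lower in the 2 cases measured. ISG20, an RNA exonuclease, read 7.14, 7.32 and 7.19 on JJ012 arrays, against 8.87, 8.77 and 8.26 on C28 arrays, a difference of −1.42 (SE 0.16, adjusted p = 0.000114). SAMD9, a factor that restricts poxviruses, read 6.14, 5.18 and 5.41 on JJ012 arrays, against 6.92, 7.77 and 7.92 on C28 arrays, where replicate 1 was the low one. Its difference was −1.96 (SE 0.32, adjusted p = 0.000752). JJ012 replicate 1 was its single JJ012 detection, and without that array it was at least 3.67-fold lower. RSAD2, which encodes viperin, was undetected on all arrays, with 4.93, 4.95 and 4.82 on JJ012 arrays and 4.89, 5.05 and 5.28 on C28 arrays. CMPK2, a nucleotide kinase beside it in the genome, was detected on 1 C28 array and was not measured. It read 4.782, 4.617 and 4.535 on JJ012 arrays, against 5.459, 5.554 and 5.35 on C28 arrays, without overlap. SAMD9L, the relative of SAMD9, was undetected on all arrays.

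**Figure D2:**
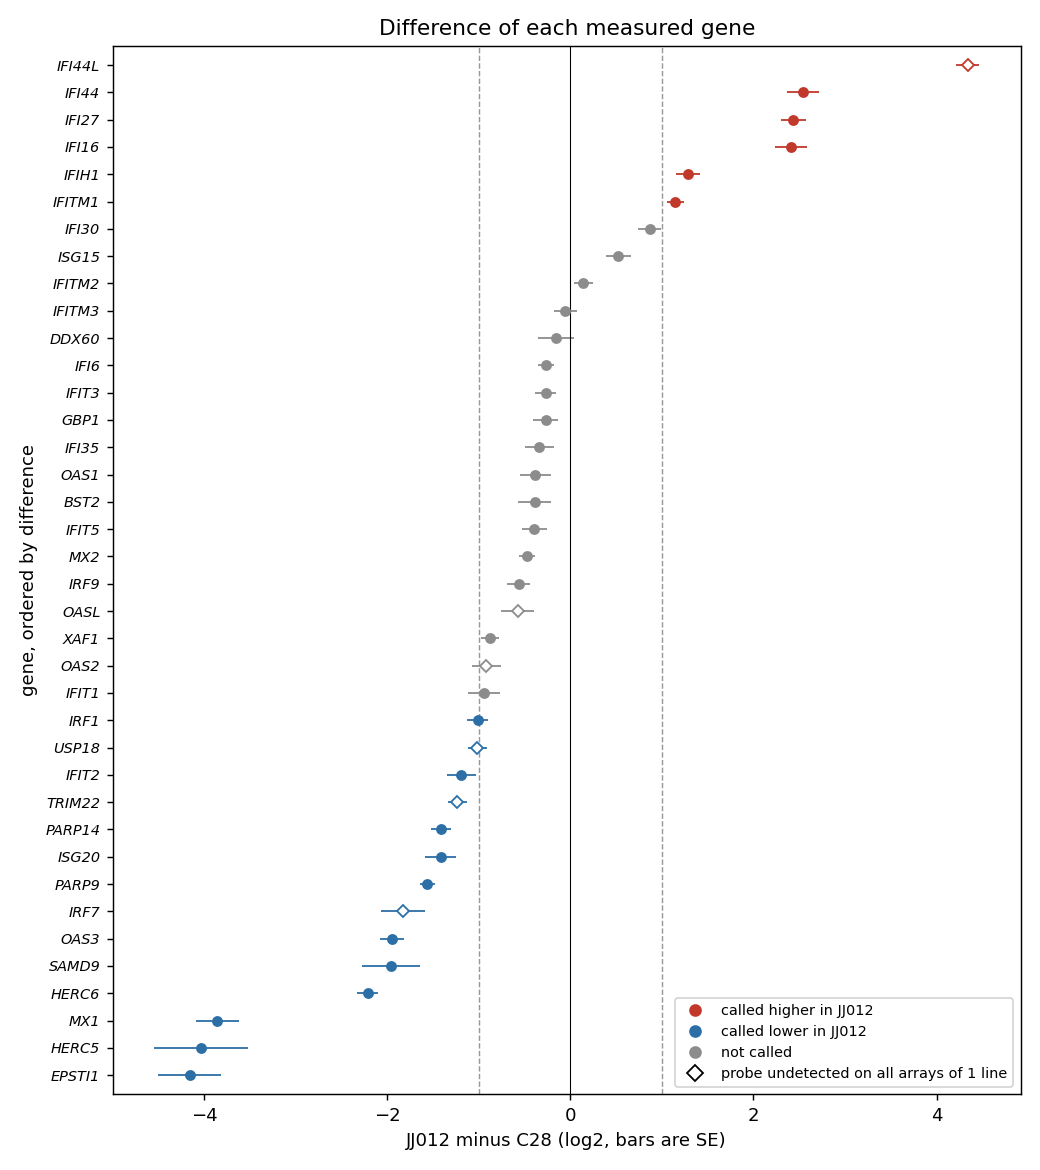
Difference of JJ012 minus C28 (log2, horizontal axis) for each of 38 measured genes (vertical axis), with the SE of the limma fit as bars, red for genes called higher, blue for genes called lower and grey for genes not called. Open diamonds are fitted values of probes undetected on all arrays of 1 line, and dashed lines mark 2-fold; the points run from −4.16 for EPSTI1 to 4.34 for IFI44L, with 18 grey points between −0.95 and 0.87.

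Of the 4 small induced proteins, IFI44L, IFI44 and IFI27 were higher in JJ012 and IFI6 was not. IFI44L, a cytoplasmic protein widely used to mark the interferon response, read 8.99, 8.63 and 9.07 on JJ012 arrays, against 4.58, 4.57 and 4.51 on C28 arrays, where it was at background. It was at least 10.7-fold higher (adjusted p = 1.98e-07) and was the member called higher with no C28 detection (background 3.69%). A second probe, designed to an expressed sequence tag that the platform assigns to IFI44L, disagreed in size: it read 6.22, 6.34 and 6.79 on JJ012 arrays, against 5.50, 5.90 and 5.83 on C28 arrays, a difference of 0.71 that was not called.

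IFI44, its relative and next gene, read 10.40, 10.46 and 10.58 on JJ012 arrays, against 7.54, 8.23 and 8.05 on C28 arrays. It was 5.82-fold higher, a difference of 2.54 (SE 0.17, adjusted p = 7.31e-06). IFI27, a small hydrophobic membrane protein, read 9.84, 10.15 and 10.02 on JJ012 arrays, against 7.74, 7.62 and 7.34 on C28 arrays. It was 5.41-fold higher, a difference of 2.44 (SE 0.14, adjusted p = 2.94e-06). IFI6, a mitochondrial relative of IFI27, did not follow, and differed by −0.26 (adjusted p = 0.0276), with a second probe at 0.04.

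The nuclear factors and PARP enzymes moved in both directions. IFI16, a nuclear sensor of DNA, read 10.65, 10.08 and 10.48 on JJ012 arrays, against 7.74, 8.20 and 8.03 on C28 arrays. It was 5.32-fold higher, a difference of 2.41 (SE 0.18, adjusted p = 9.95e-06). PARP9 and PARP14, ADP-ribosyltransferase family members that share a locus on chromosome 3, were both lower.

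PARP9 read 6.61, 6.67 and 6.58 on JJ012 arrays, against 8.14, 8.21 and 8.20 on C28 arrays, at −1.56 (SE 0.08, adjusted p = 2.68e-06), with a second probe at −1.68. PARP14 read 6.92, 6.83 and 6.67 on JJ012 arrays, against 8.10, 8.24 and 8.32 on C28 arrays, at −1.41 (SE 0.11, adjusted p = 1.16e-05). DTX3L, the partner of PARP9 that lies between them and is no member, was undetected in JJ012, at least 1.15-fold lower and not called. TRIM22, a ubiquitin ligase, was at background in JJ012, with 4.66, 4.47 and 4.46 on JJ012 arrays, against 5.63, 5.84 and 5.84 on C28 arrays. It was at least 1.06-fold lower (adjusted p = 2.19e-05), a bound that shows how close its C28 signal is to the detection limit, and its call was lost without background correction and in the authors' values.

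Of the 4 remaining members, EPSTI1 was lower in JJ012 and the others were not called. EPSTI1, named for its induction in epithelial cells by stromal cells, read 5.97, 4.52 and 4.63 on JJ012 arrays, against 9.20, 9.23 and 9.17 on C28 arrays. The C28 arrays were close together, whereas JJ012 replicate 1, its single JJ012 detection, stood above the other 2. The difference was −4.16 (SE 0.35, adjusted p = 1.9e-05). When JJ012 replicate 1 was left out, EPSTI1 was at least 11.7-fold lower. XAF1, a partner of the apoptosis inhibitor XIAP, differed by −0.87 (adjusted p = 9.45e-05), and its second probe, undetected in JJ012, was called and at least 2.04-fold lower. IFI35, which binds the interferon-induced protein NMI, overlapped between the lines at −0.34 (adjusted p = 0.0854). IFI30, a thiol reductase of lysosomes, was higher without reaching 2-fold, at 0.87 (adjusted p = 0.000416).

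The members called lower in JJ012 were set beside the signal that JJ012 replicate 1 gave at probes bright in C28. EPSTI1 read 8.30%, 1.27% and 1.65% of its C28 mean on JJ012 replicates 1, 2 and 3, MX1 read 8.06%, 2.81% and 3.70%, and HERC5 read 13.3%, 1.51% and 4.62%. On replicate 1 the 56 probes of other genes had a median of 10.6% and ran from 9.27% at the 10th percentile to 12.2% at the 90th, with EPSTI1 and MX1 below that range and HERC5 above it. HERC6 read 14.9%, 13.7% and 19.8%, with no excess on replicate 1. The remaining members called lower read 11.4% or more on all 3 JJ012 arrays. With that share subtracted from JJ012 replicates 1 and 3, all 6 higher calls remained, as did the 14 lower calls, about which the step says little because it can only lower JJ012. Conversely, JJ012 signal on the C28 arrays was 0.648% to 0.852% over 54 probes bright in JJ012.

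**Figure D3:**
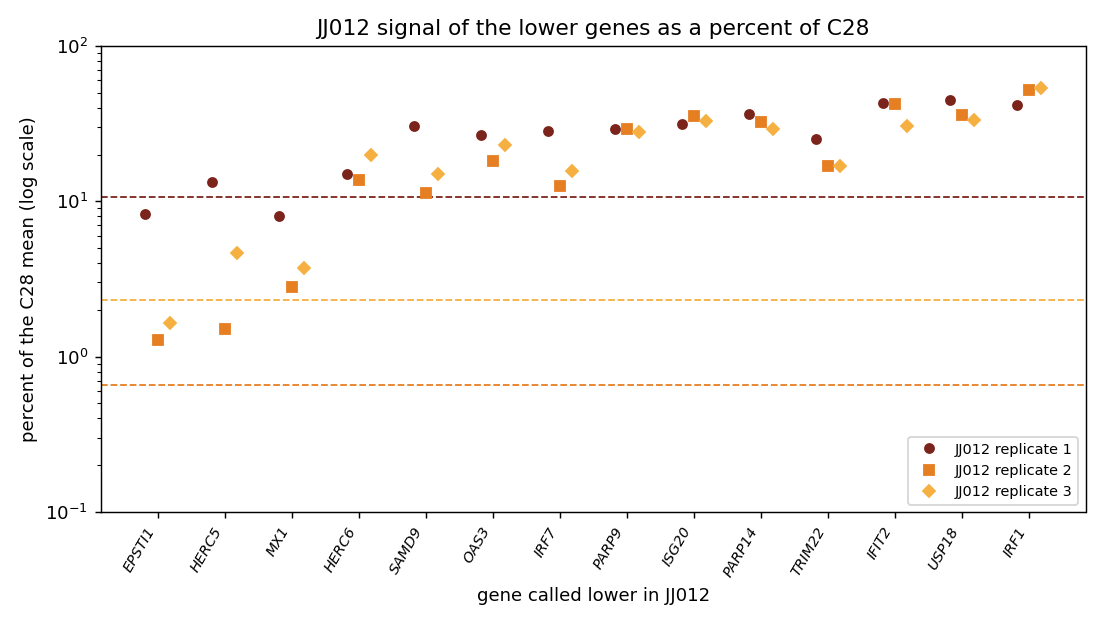
Signal of the 14 genes called lower (horizontal axis) on each JJ012 array as a percent of the C28 mean (vertical axis, log scale), with dark circles for replicate 1, orange squares for replicate 2 and yellow diamonds for replicate 3. Dashed lines in the same colours are the medians over 56 probes of other genes (10.6%, 0.658% and 2.31%); on replicate 1 EPSTI1, HERC5 and MX1 lie between 8.06% and 13.3%, around its dashed line, and the other genes lie above the dashed lines on every array.

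The genes that flank the members were read in chromosomal order. IFI44L and IFI44 stood in a run of 6 consecutive measured genes on chromosome 1 that were all called higher in JJ012. In order these were DNAJB4 at 2.01, PTGFR at least 2.57-fold higher, IFI44L, IFI44, ADGRL4 at least 7.46-fold higher and ADGRL2 at least 10.02-fold higher. DNAJB4, PTGFR, ADGRL4 and ADGRL2 are in none of the interferon lists used here. The genes on either side, FUBP1 at 0.80 and TTLL7 at 0.61, were not called. Among 11508 genes placed in order, 9 runs of 6 or more were called higher and 8 were called lower. HERC6 and HERC5 differed from their surroundings instead, as PPM1K at 0.29 and PIGY at −0.28 on their 2 sides were not called. Some other lower members had a gene called lower directly beside them. These were DNAJC15 at −1.89 for EPSTI1, RIPK4 at −1.02 for MX1 and LIPA at −1.01 for IFIT2. ISG20 was followed by HAPLN3, at least 2.83-fold lower, and USP18 by TMEM191B at −1.83. SAMD9, OAS3, IRF7, PARP9, PARP14, TRIM22 and IRF1 had no gene called lower directly beside them. IFI27 had the related IFI27L1 at 1.23 on one side and IFI27L2 at 0.16 on the other.

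**Figure D4:**
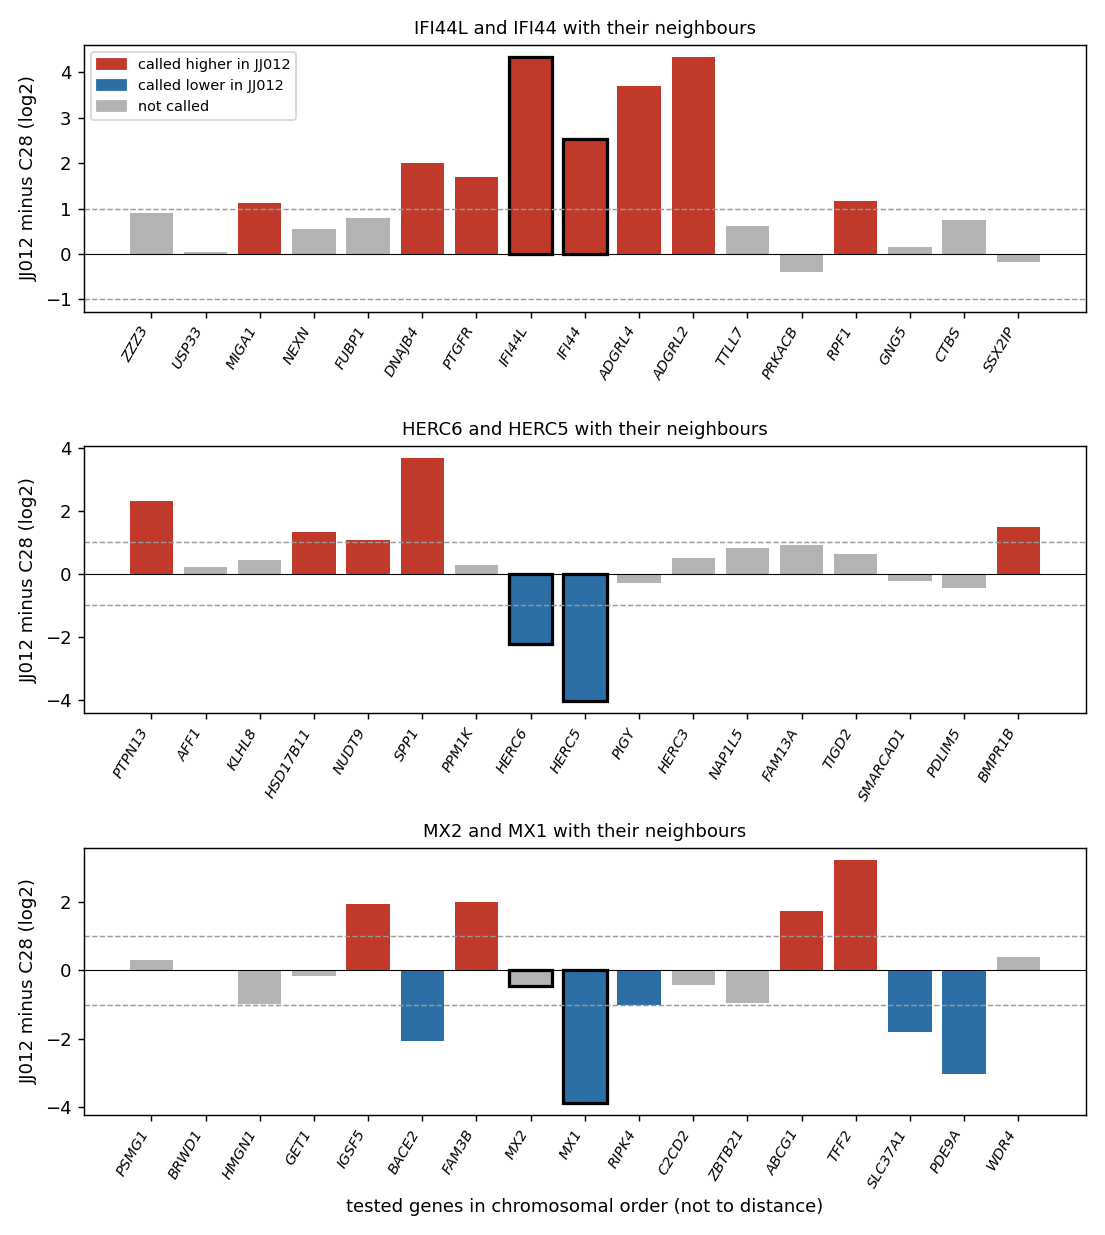
Difference of JJ012 minus C28 (log2, vertical axes) for measured genes in chromosomal order (horizontal axes, not to distance) around IFI44L and IFI44, HERC6 and HERC5, and MX2 and MX1, with members outlined in black. Red bars are genes called higher in JJ012, blue bars genes called lower and grey bars genes not called, and dashed lines mark 2-fold; bars of genes undetected in 1 line are fitted values. The top panel shows the run of 6 red bars from DNAJB4 to ADGRL2, and the middle panel shows HERC6 and HERC5 between uncalled neighbours.

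Other genes of the pathway were read from 6 further lists. Of 21 genes for interferons themselves (30 probes), none was detected on any array, the highest detection value being 0.978 for IFNA4. Among all genes, 13.7% were called higher in JJ012 and 17.6% lower, with a median of −0.04. Among receptors and kinases, 1 of 9 measured genes (11.1%) was called higher and 3 (33.3%) were lower, with a median of −0.14. Both chains of the interferon gamma receptor were lower. IFNGR2 read 10.61, 10.25 and 10.49 on JJ012 arrays, against 11.82, 11.94 and 11.89 on C28 arrays (−1.43, adjusted p = 1.51e-05), and IFNGR1 was at −1.23 (adjusted p = 1.47e-05). IFNLR1, a chain of the interferon lambda receptor, was detected in C28 alone and was at least 3.09-fold lower (adjusted p = 5.92e-06). The kinase JAK2 was higher at 1.15 (adjusted p = 2.52e-05), while the interferon alpha receptor chains IFNAR1 at 0.54 and IFNAR2 at −0.90 were not called.

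Transcription factors and inhibitors had 0 higher and 5 lower (33.3%) calls of 15 measured by limma (median −0.55, or −0.43 at bounds). With an unadjusted p under 0.05 the higher count was 0 at 2-fold and 2 at any size. IRF8 was at least 3.65-fold, IRF2 at least 2.48-fold and IRF5 at least 1.65-fold lower, all detected in C28 alone, and the phosphatase gene PTPN1 was at −1.21. Sensors and adaptors had 0 higher and 5 lower (35.7%) calls of 14 by limma, with a median of −0.04 as for all genes. With an unadjusted p under 0.05 the higher count was 0 at 2-fold and 3 at any size. CGAS, the cytosolic DNA sensor, read 4.70, 4.59 and 4.42 on JJ012 arrays, against 8.35, 8.26 and 8.25 on C28 arrays, at least 6.07-fold lower (adjusted p = 1.52e-07). MYD88, the adaptor of toll-like receptors, was at least 6.12-fold lower (adjusted p = 1.01e-05), DHX58, which encodes the RNA helicase LGP2, at least 1.52-fold lower, and the kinase gene IKBKE was at −1.25, while STING1, the partner of CGAS, was at 0.11 and not called.

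Further interferon-stimulated genes outside the 43 had 2 higher (7.14%) and 8 lower (28.6%) calls of 28 measured (median −0.60, or −0.55 at bounds). SLFN11, a factor that blocks stressed replication forks, read 8.27, 5.26 and 6.41 on JJ012 arrays, against 11.02, 11.08 and 10.96 on C28 arrays, a difference of −4.37 (SE 0.64, adjusted p = 0.000413). It read 14.0%, 1.09% and 3.31% of its C28 mean, the pattern of HERC5. The difference was −5.20 without JJ012 replicate 1 and −3.67 without JJ012 replicate 2. PARP12 was at least 5.23-fold lower, the cytidine deaminase gene APOBEC3G was at −2.97, and UBA7, the enzyme that activates ISG15, was at −2.29 (adjusted p = 2.91e-06). The 2 higher genes, SP110 at 1.70 and TRIM21 at 1.04, encode a nuclear body protein and an antibody receptor of the cytosol. Both were named after their values were seen, and TRIM21 lost its call without JJ012 replicate 1 (0.99) or C28 replicate 2 (0.94). Antigen presentation genes had 1 higher (8.33%) and 6 lower (50%) calls of 12 (median −1.18). The lower ones were led by HLA-B at −4.11, HLA-C at −3.02 and the immunoproteasome genes PSMB8 at −2.79 and PSMB9 at −2.44. The higher gene, HLA-E at 1.04, lost its call without JJ012 replicate 1 (0.98). Whether the HLA probes read the alleles of both lines alike was not tested. HLA-B read 12.8%, 2.26% and 4.92% of its C28 mean on JJ012 replicates 1, 2 and 3, and was at −4.70 without JJ012 replicate 1 and −3.57 without JJ012 replicate 2.

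**Figure D5:**
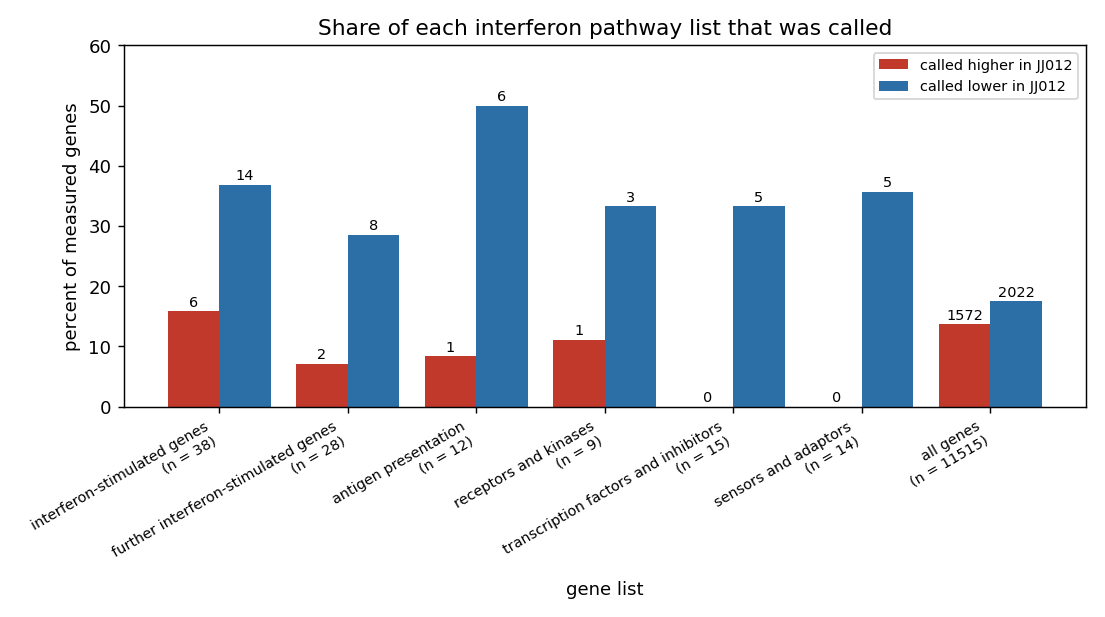
Percent of the measured genes of each list (vertical axis) called higher (red, left bars) and lower (blue, right bars) in JJ012, with the number of called genes above each bar and the number measured under the list name (horizontal axis). In every list shown the blue bar is above the red one. The counts run from 14 lower and 6 higher of 38 interferon-stimulated genes to 2022 lower and 1572 higher of all 11515 genes.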

How the data were processed

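Total RNA was measured on 3 JJ012 and 3 C28 Illumina bead arrays. The authors deposited mean probe intensity for 47231 probes on a linear scale, with no background subtraction or scaling between arrays that the values show. Beside each intensity the deposited table holds a detection value, a fraction, read as 1 minus the detection p because bright probes are at 1. A further deposited table of the authors holds normalized log2 values centred on each probe's median across arrays. Its column medians were −0.003, 0.004 and 0.003 in JJ012 and −0.001, −0.001 and 0 in C28. Set against the intensities, its scale and direction were as for log2 signal (slope 0.987, correlation 0.998), while the method behind it is unknown.

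Background correction and quantile normalization used the neqc function (limma 3.58.1, R 4.3.3, offset 16, negative controls inferred from the detection values). Probes with a detection value above 0.99 on all 3 arrays of a line were kept (19384), and a gene with several took the one with the highest mean signal. JJ012 was compared with C28 by lmFit and eBayes, two-sided, with Benjamini-Hochberg adjustment over 11515 genes. Symbols came from the platform annotation (30113 probes with 1 symbol, 8 with several, 17110 with none listed) and 30074 probes matched a RefSeq table of GRCh38.p14, which also gave gene order. RefSeq promoter windows matched 35 members by symbol. Every measured member was named, with values on each array for called members. In the other lists up to 4 called genes with the largest differences were named. A few others were chosen after their values were seen (IFNAR1, IFNAR2, STING1, SP110, TRIM21, HLA-E and DTX3L). The members, lists and rules were chosen with earlier results of these data known. The fit was tested on simulated data. The number of arrays limits the precision. Alternatives varied the background correction, scaling, filter, probe, weights, replicate block, arrays and fold.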

Additional observations from a re-analysis of the deposited data

How the results depend on the processing

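Of the 20 members called, 3 higher (IFI16, IFI27 and IFI44) and 9 lower (EPSTI1, HERC5, HERC6, ISG20, MX1, OAS3, PARP14, PARP9 and SAMD9) kept their call in every alternative that tested them at 2-fold; of these, SAMD9, OAS3, PARP9, ISG20 and PARP14 fell short of 4-fold. A filter for detection on all 6 arrays left 26 members to test. IRF1 lost its call in 7 of 19 alternatives and USP18 in 5 of 18, both close to 2-fold, while IFIT2, IRF7, TRIM22 and IFIH1 lost theirs without background correction and in the authors' normalized values. The 14 lower members became 9 without background correction and 9 with the authors' values. They became 6 of the 26 tested with detection on all 6 arrays, 22 with no minimum fold and 4 at 4-fold. Over all genes, 1014 were higher and 1043 lower of the 9399 tested with detection on all 6 arrays. The counts were 3961 and 4387 with no minimum fold, and 468 and 699 at 4-fold. Of the other pathway lists together, 4 higher genes became 2 with normexp, 1 without background correction, 1 with median scaling and 1 with the authors' values. They became 14 with no minimum fold and 0 at 4-fold by limma (also 0 at an unadjusted p under 0.05). The 27 lower genes became 12 of the 58 tested with detection on all 6 arrays, 46 with no minimum fold and 13 at 4-fold. Median scaling moved the median of all genes to −0.23, against −0.04, and the lower share of calls to 67.0%, against 56.3%; the members' median was −0.68 against −0.52, or −0.45 against −0.48 relative to that of all genes. Leaving out each array in turn gave 6 higher and 13 to 15 lower members, 1543 to 1682 and 1995 to 2082 genes, and 2 to 6 and 26 to 31 genes of the other lists, where the 2 was without JJ012 replicate 1. Differences near 0 changed sign: over fits that left out 1 array, IFITM3 ran from −0.162 to 0.0357 and IFIT3 from −0.323 to 0.272. The IFIT3 sign change came with a change of probe, made without C28 replicate 1 (0.0454) and 2 (0.272), where the probe used with all arrays gave −0.32 and −0.21. Where JJ012 replicate 2 stood alone for its line, with its spread taken from C28, IFITM3 was 0.0038 and BST2 0.0138. In that fit IFI44L was taken from its dimmer probe (0.61) and lost its call. Apart from these, the cause of each change was not tested. Replicate numbers did not pair the arrays, as the deviations of same-numbered arrays correlated at −0.04, −0.07 and 0.07, and with the replicate number as a block 6 members were higher and 14 lower, as without it, among 1572 and 2022 genes. Low signals limit the size of change for genes undetected in 1 line.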
